A study of Mus musculus with 10 samples.

Results

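The peroxisome proliferator-activated receptors (PPARs), their partners the retinoid X receptors (RXRs) and their coactivators were followed in colonic organoids. These are cultures of colonic epithelium, started from isolated crypts and grown as small hollow bodies in a gel. The set was defined by name and role, not by measured values, and held 9 genes: Pparg, Ppara, Ppard, Rxra, Rxrb, Rxrg, Ppargc1a, Ppargc1b and Ncor1. Of these, 8 were matched to a probe set with a single gene symbol, among 18820 genes so matched in all. The expression of Ncor1 was not analysed here. Expression was measured on 10 Affymetrix whole-transcript arrays, which read RNA through probes spread along each transcript, and is given as RMA expression on the log2 scale. The 4 groups were KO with rosiglitazone (n = 3), KO with vehicle (n = 2), WT with rosiglitazone (n = 3) and WT with vehicle (n = 2).

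Each array held RNA of 1 mouse, and each genotype had 3 mice, all of them male and kept on the C57BL/6J background. The KO mice were homozygous for a Pparg allele with exons 1 and 2 between loxP sites and carried Cre recombinase under the villin promoter, which is active in the intestinal epithelium. The WT mice were littermates, and the labels do not say whether they carried loxP sites or Cre. Cultures of both genotypes grew in Matrigel with Wnt, Noggin, R-spondin and EGF, and received 1 µM rosiglitazone or 0.1% DMSO as vehicle for 24 h. Mice 44 and 46 (KO) and mice 42 and 47 (WT) gave an array of each treatment, whereas mice 45 (KO) and 48 (WT) gave a rosiglitazone array only. The comparisons ask whether the genes of the receptor machinery themselves differed with the drug and with the labelled loss of the receptor.

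PPARs are nuclear receptors that bind fatty acids and related lipids. Each binds DNA as a pair with an RXR, at repeats of the half-site AGGTCA, and turns on genes of fatty acid use and storage when a ligand recruits coactivators in place of corepressors. PPARγ, encoded by Pparg, drives fat cell formation and is abundant in the colonic epithelium, and rosiglitazone is a drug of the thiazolidinedione class that activates it. PPARα and PPARδ are its relatives, known for fatty acid oxidation in liver and for broad expression.

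Pparg is transcribed from several starts, and its only probe set here, 10540897, was annotated to 2 RefSeq transcripts, so the reading pools them. The RefSeq promoter table (GRCm38.p6) held 3 starts of Pparg, and the 250 bases before each are shown because Pparg encodes the drug's target and had the widest range of the set over the 10 arrays. Capitals mark the half-site AGGTCA, which was searched on both strands.
Pparg start at chr6:115360894-115361143, plus strand: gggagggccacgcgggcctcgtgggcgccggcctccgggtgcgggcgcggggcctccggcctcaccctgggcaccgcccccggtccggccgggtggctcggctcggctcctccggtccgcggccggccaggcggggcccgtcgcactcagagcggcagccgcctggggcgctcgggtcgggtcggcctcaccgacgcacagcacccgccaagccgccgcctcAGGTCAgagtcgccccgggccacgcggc
Pparg start at chr6:115362099-115362348, plus strand: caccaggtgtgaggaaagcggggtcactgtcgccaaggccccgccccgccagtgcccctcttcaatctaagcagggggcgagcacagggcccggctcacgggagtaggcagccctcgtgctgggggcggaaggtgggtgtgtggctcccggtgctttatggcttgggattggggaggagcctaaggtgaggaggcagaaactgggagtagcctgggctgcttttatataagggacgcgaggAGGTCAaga
Pparg start at chr6:115421816-115422065, plus strand: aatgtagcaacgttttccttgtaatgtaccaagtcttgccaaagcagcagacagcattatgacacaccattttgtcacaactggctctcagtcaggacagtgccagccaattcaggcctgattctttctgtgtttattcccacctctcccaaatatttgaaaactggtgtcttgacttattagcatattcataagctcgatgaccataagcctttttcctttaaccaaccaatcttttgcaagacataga
The first window held 1 half-site on the plus strand, beginning 28 bases before the start, and 82.4% G and C. The second held 1 on the plus strand, beginning 9 bases before the start, with 63.6% G and C. The third held none of these letters in either orientation and had 40.8% G and C. Among 14 such windows of 8 member genes, 4 held the half-site: these 2 of Pparg, 1 of Rxra and 1 of Rxrg. The 8 genes include Ncor1 and not Ppargc1b. Of all 32851 windows, 14% held the half-site. Any window of Ppargc1b was left out of the member count, whereas the count over all windows left out no gene. The direct repeat called DR1, AGGTCA followed by any 1 base and by AGGTCA again, was searched on both strands and contains the half-site. It was in 0 of the 14 windows and in 0.0335% of all windows. A match describes the letters and shows no binding.

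All 8 colon epithelium markers, among them Vil1, Epcam and Cdx2, lay above the median of the 23099 tested probe sets, whereas 0 of 8 fibroblast and smooth muscle markers did. Of 8 blood and endothelial markers only Cd68 lay above it, and of 5 adipocyte markers only Lipe. Arrays of a group correlated at r from 0.986 to 0.996 across probe sets, and the first principal component (27.4% of the variance) set both arrays of mouse 46 apart, at -31.75 and -39.30 against -4.10 to 19.60 for the others. Goblet and deep crypt secretory markers averaged 7.88 (log2, 9 genes) in KO rosiglitazone replicate 2, from mouse 45, against 3.56 to 5.94 in the other 9 arrays.

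No gene of the set passed limma's threshold of an adjusted p of 0.05 in any of the 5 comparisons (0 of 8 in each). Across all 23099 probe sets the share called was 0% for rosiglitazone against vehicle in KO, for the same in WT, for the difference between these responses and for KO against WT under vehicle, and 0.0216% for KO against WT under rosiglitazone. At an unadjusted p under 0.05 the shares of all probe sets were 3.06% (706), 0.991% (229), 2.32% (536), 5.69% (1314) and 4.81% (1110) in that order. Of the 8 genes measured only Ppargc1b lay there, in the last of these comparisons, and 0 lay there in the other 4. That fit ignores which mouse each array came from. With the donor as a fixed block, which leaves 2 residual degrees of freedom, 0 of 8 lay there for rosiglitazone against vehicle in KO, where 7.49% of all probe sets did. In WT there were 2 of 8, Pparg (limma unadjusted p = 0.0027) and Ppargc1b (0.0293), against 3.85% of all probe sets. For the difference between the responses there was 1 of 8, Pparg (unadjusted p = 0.00863), against 5.09%. The adjusted p of these 3 values was 0.917 to 1, over all probe sets. A missed threshold does not show that groups were alike, so levels and differences are given with their intervals. Each 95% interval comes from the limma fit and is not adjusted for the number of probe sets.

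**Figure D1:**
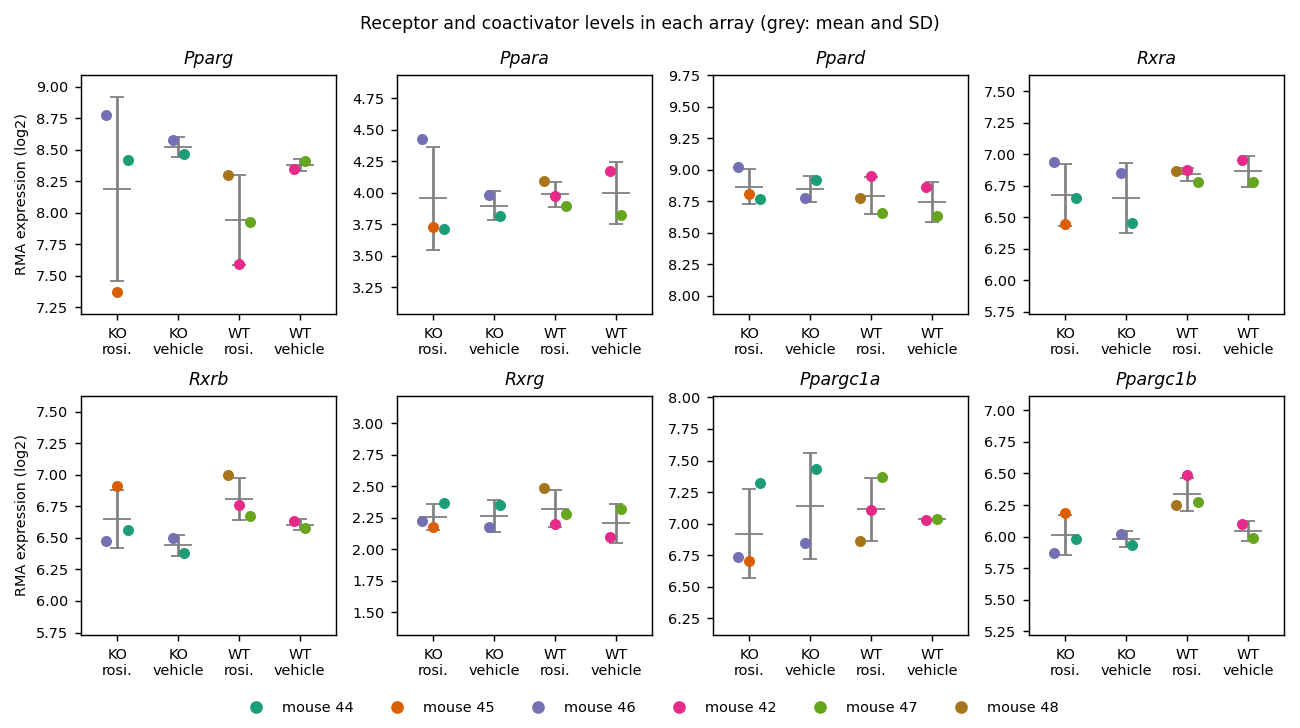
RMA expression (log2, y axis) of the 8 measured genes in each of the 10 arrays, by group and coloured by mouse, with grey bars for the group mean and SD. Every panel spans the same log2 range. Pparg spread from 7.37 to 8.78, and the 3 WT rosiglitazone arrays were the highest of all for Ppargc1b.

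Pparg, which encodes the receptor that rosiglitazone binds, did not have a lower mean in the arrays labelled KO than in those labelled WT under either treatment. It read 8.78, 7.37 and 8.41 in KO rosiglitazone replicates 1, 2 and 3, and 8.58 and 8.47 in KO vehicle replicates 1 and 2. In WT it read 8.30, 7.59 and 7.93 with rosiglitazone and 8.34 and 8.41 with vehicle. The means were 8.19 ± 0.73 in KO rosiglitazone (SD, n = 3), 8.52 ± 0.08 in KO vehicle (n = 2), 7.94 ± 0.36 in WT rosiglitazone (n = 3) and 8.38 ± 0.05 in WT vehicle (n = 2). KO vehicle was thus the highest group, followed by WT vehicle, KO rosiglitazone and WT rosiglitazone. The step between the vehicle groups was larger than both SDs beside it, but each of those rests on 2 arrays. The limma SE of that step was 0.38. The vehicle groups did not overlap, with both KO arrays the higher, as they did not for 39.1% of all probe sets and 2 of the 8 genes. KO minus WT was 0.14 (95% interval -0.69 to 0.98, limma adjusted p = 0.96) in vehicle and 0.25 (-0.43 to 0.93, adjusted p = 0.999) in rosiglitazone. A random block for the donor turned the vehicle value to -0.11. Leaving out KO rosiglitazone replicate 1 turned the rosiglitazone value to -0.05, and restricting the fit to the 4 paired mice gave 0.84 (adjusted p = 0.256). Where the probes lie relative to exons 1 and 2 is not known here, so the reading was not used to check the deletion. The direction of each comparison of genotypes is that of the labels.

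Within mice, rosiglitazone minus vehicle for Pparg was -0.05 and 0.20 on the log2 scale in KO mice 44 and 46, and -0.75 and -0.49 in WT mice 42 and 47. The drug's array was thus the lower one in both WT mice, and the KO mice went either way. All 3 WT rosiglitazone arrays lay below both WT vehicle arrays, though for mouse 48 only narrowly, at 8.30 against 8.34 and 8.41. No overlap of these groups was seen in 15.4% of all probe sets and in 3 of the 8 genes. Over all arrays the difference was -0.33 in KO (95% interval -1.10 to 0.43, limma adjusted p = 1) and -0.44 in WT (-1.20 to 0.32, adjusted p = 1). The KO value rests on mouse 45, whose array had no vehicle partner: without KO rosiglitazone replicate 2 it was 0.07. With the donor as a fixed block, which drops what mice 45 and 48 could say of the response, the difference was 0.07 (SE 0.13, adjusted p = 0.929) in KO and -0.62 (SE 0.13, adjusted p = 0.917) in WT.

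The difference between the Pparg responses, KO minus WT, was 0.10 over all arrays (SE 0.49, 95% interval -0.97 to 1.18, adjusted p = 1) and 0.69 with the donor as a fixed block (SE 0.19, adjusted p = 0.957). Mice 45 and 48 enter the response in the first of these values only, and without both arrays of mouse 46 it was -0.14. The array of mouse 45 had the lowest Pparg of all, 7.37, and the highest goblet and deep crypt secretory markers, 7.88. The array of KO rosiglitazone replicate 1 had the highest Pparg, 8.78, and the lowest such markers, 3.56. These are the extremes, and some other arrays did not keep that order. The next-highest markers, 5.94 in KO rosiglitazone replicate 3, went with a Pparg of 8.41. The next-lowest Pparg, 7.59 in WT rosiglitazone replicate 2, went with markers of 4.86. Crypt stem cell and cycling marker means were highest in mouse 45 (6.36 and 9.13) and WT rosiglitazone replicate 2 (6.05 and 9.04). They were lowest in the arrays of mouse 46, highest in Pparg, at 5.44 and 8.82 with rosiglitazone and 5.42 and 8.82 with vehicle. KO vehicle replicate 2, with a Pparg of 8.47, did not keep that order, at 6.01 and 8.95. Both lists were set beside Pparg after the values were seen. Differentiated colonocyte markers averaged 6.59 to 6.98 in KO rosiglitazone, 6.30 to 6.58 in KO vehicle, 6.58 to 7.44 in WT rosiglitazone and 7.10 to 7.52 in WT vehicle (log2, 12 genes). The part of cell makeup in the Pparg reading was not tested, and in these bulk samples fewer cells of a type and less RNA per cell cannot be told apart.

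**Figure D2:**
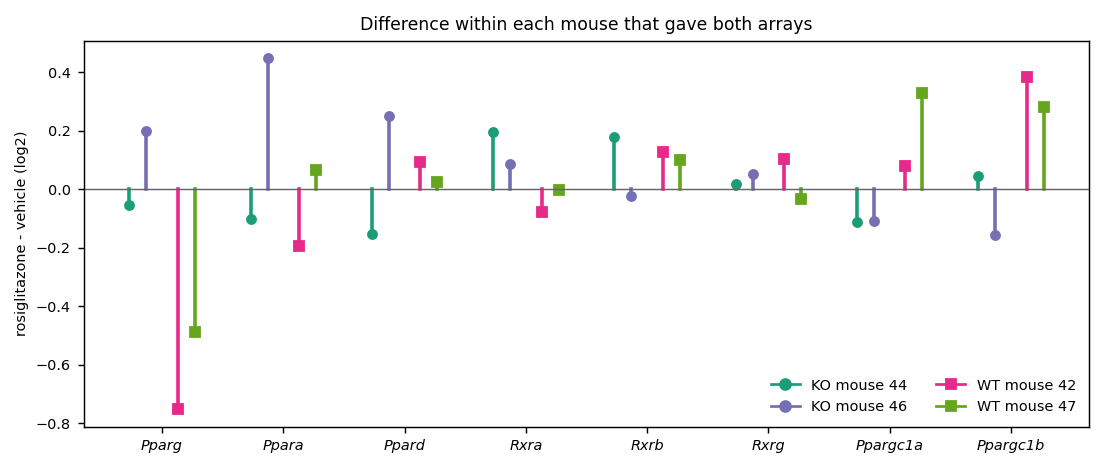
Rosiglitazone minus vehicle (log2, y axis) within each of the 4 mice that gave both arrays, for the 8 genes, with circles for KO mice and squares for WT mice. Pparg lay at -0.05 and 0.20 in the KO mice and at -0.75 and -0.49 in the WT mice.

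Of all 18819 other genes, those nearest to Pparg in pattern were Prkg2, Cav2 and Crebl2. Nearness was the root mean square difference over the 10 arrays after each gene was set to its own mean, and was 0.20, 0.21 and 0.21 on the log2 scale, where Pparg itself spread by 0.42 around its mean. Prkg2 encodes a cGMP-dependent protein kinase of the intestinal epithelium. It read 8.49, 7.59 and 8.06 in KO rosiglitazone, 8.42 and 8.26 in KO vehicle, 8.07, 7.48 and 7.67 in WT rosiglitazone and 7.78 and 7.91 in WT vehicle. Cav2 encodes caveolin-2, a membrane protein of caveolae, and ran from 9.07 in mouse 45 to 10.03 in KO rosiglitazone replicate 1. Crebl2, a bZIP protein related to CREB, ran from 5.91 in mouse 45 to 7.16 in KO vehicle replicate 1. All 3 were at their lowest or next to it in the array of mouse 45, as Pparg was, and mouse 46 held the highest reading of each. The genes were picked for nearness over these same arrays, so the shared pattern is no separate evidence.

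**Figure D3:**
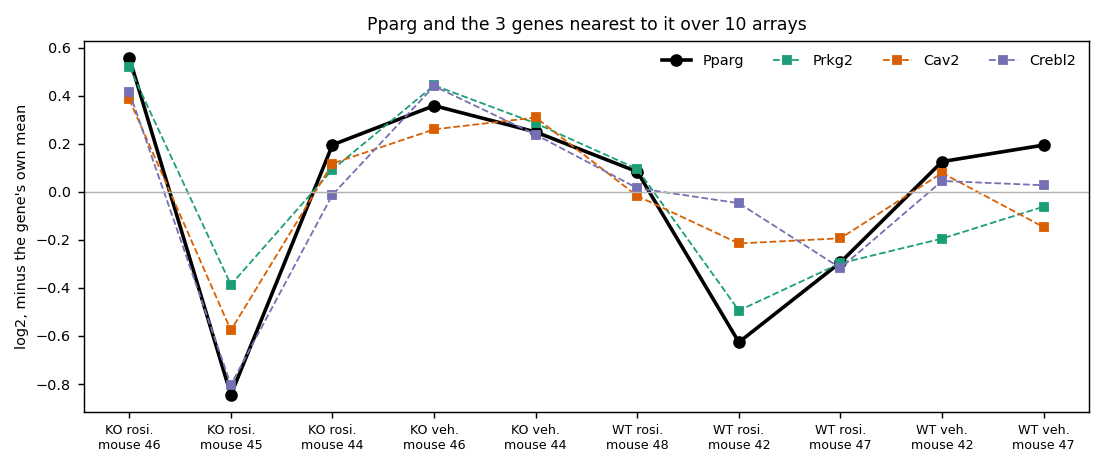
Log2 expression minus the gene's own mean (y axis) for Pparg (black) and its 3 nearest genes in the 10 arrays, ordered by group. The root mean square difference from Pparg was 0.20 for Prkg2, 0.21 for Cav2 and 0.21 for Crebl2.

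Ppard, the broadly expressed receptor PPARδ, stayed within 8.63 to 9.02 over all 10 arrays. It averaged 8.87 ± 0.14 in KO rosiglitazone (n = 3), 8.85 ± 0.10 in KO vehicle (n = 2), 8.80 ± 0.15 in WT rosiglitazone (n = 3) and 8.75 ± 0.16 in WT vehicle (n = 2). Each step in that order was smaller than the SDs of the groups beside it. Rosiglitazone minus vehicle was 0.02 in KO (95% interval -0.31 to 0.34) and 0.05 in WT (-0.28 to 0.37). KO minus WT was 0.10 in vehicle (-0.25 to 0.46) and 0.07 in rosiglitazone (-0.22 to 0.36). The bound farthest from 0 in these 4 comparisons was 0.46. The adjusted p was 0.928 to 1 in the 5 comparisons.

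Ppara, known for fatty acid oxidation in liver, had a mean of 3.96, below the median of the tested probe sets (4.51). Its rank was near the middle, with 46.7% of tested probe sets below its mean, and differences may be compressed at this level. It read 4.42, 3.73 and 3.71 in KO rosiglitazone and 3.98 and 3.81 in KO vehicle. In WT it read 4.09, 3.98 and 3.89 with rosiglitazone and 4.17 and 3.83 with vehicle. The reading of 4.42 was that of mouse 46, and the other 9 arrays spanned 3.71 to 4.17. The 4 group means lay from 3.90 to 3.997, and all groups compared overlapped. Rosiglitazone minus vehicle was 0.06 in KO (95% interval -0.42 to 0.53) and -0.01 in WT (-0.49 to 0.47). The adjusted p was 0.954 to 1.

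The RXRs are the partners without which PPARs do not bind their sites. Rxra read 6.94, 6.45 and 6.65 in KO rosiglitazone, 6.85 and 6.46 in KO vehicle, 6.87, 6.88 and 6.78 in WT rosiglitazone and 6.95 and 6.78 in WT vehicle. The KO arrays of mice 44 and 45 lay at 6.45 to 6.65, below all WT arrays, while those of mouse 46 lay among the WT arrays. Rosiglitazone minus vehicle was 0.02 in KO (95% interval -0.36 to 0.41) and -0.03 in WT (-0.41 to 0.36). KO minus WT was -0.21 in vehicle (95% interval -0.63 to 0.21, adjusted p = 0.873) and -0.16 in rosiglitazone (-0.50 to 0.18, adjusted p = 0.999). Without mouse 46, a choice made after seeing the data, they were -0.41 (adjusted p = 0.799) and -0.29 (adjusted p = 0.854).

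For Rxrb, rosiglitazone minus vehicle was 0.21 in KO (95% interval -0.15 to 0.56) and 0.21 in WT (-0.15 to 0.56), each at limma adjusted p = 1. It averaged 6.65 ± 0.23 in KO rosiglitazone (n = 3), 6.44 ± 0.08 in KO vehicle (n = 2), 6.81 ± 0.17 in WT rosiglitazone (n = 3) and 6.61 ± 0.04 in WT vehicle (n = 2). The WT groups did not overlap, with all 3 rosiglitazone arrays (6.997, 6.76 and 6.68) above the vehicle arrays (6.63 and 6.58). These groups had no overlap, in either direction, in 15.4% of all probe sets. Rxrb was highest in the arrays of mouse 45 (6.91) and mouse 48 (6.997), which had no vehicle array beside them. Within mice the difference was 0.18 and -0.02 in KO (mice 44 and 46) and 0.13 and 0.10 in WT (mice 42 and 47). Under vehicle both KO arrays (6.50 and 6.38) lay below both WT arrays (6.63 and 6.58), a difference of -0.17 (-0.55 to 0.22, adjusted p = 0.892). The vehicle groups had no overlap, in either direction, in 39.1% of all probe sets.

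Rxrg, an RXR known from muscle and brain, was dim throughout, between 2.09 and 2.49 in all 10 arrays. Its group means lay between 2.21 and 2.32, every pair of groups overlapped, and the adjusted p was 0.962 to 1. The probe set was among the dimmer ones, with 17.7% of tested probe sets below its mean.

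Ppargc1b encodes PGC-1β, a coactivator of PPARs and of the estrogen-related receptors that is known for mitochondrial and lipid genes. It read 5.87, 6.18 and 5.98 in KO rosiglitazone and 6.02 and 5.93 in KO vehicle. In WT it read 6.25, 6.48 and 6.27 with rosiglitazone and 6.10 and 5.99 with vehicle. The 3 WT rosiglitazone arrays were thus above all 7 other arrays, as in 0.732% of all probe sets (169 of 23099) and in 1 of the 8 genes. This pattern was counted after the values were seen. The means were 6.01 ± 0.16 in KO rosiglitazone (SD, n = 3), 5.98 ± 0.06 in KO vehicle (n = 2), 6.33 ± 0.13 in WT rosiglitazone (n = 3) and 6.04 ± 0.08 in WT vehicle (n = 2). WT rosiglitazone was the highest group, and the other 3 did not differ beyond their spread.

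Rosiglitazone minus vehicle for Ppargc1b was 0.03 in KO (95% interval -0.28 to 0.34, limma adjusted p = 1) and 0.29 in WT (-0.02 to 0.60, adjusted p = 1), the WT value being a 1.22-fold reading. Within mice it was 0.04 and -0.15 in KO (mice 44 and 46) and 0.38 and 0.28 in WT (mice 42 and 47). KO minus WT was -0.32 in rosiglitazone (-0.60 to -0.05), where the arrays of the genotypes did not overlap, as in 8.69% of all probe sets. Its adjusted p was 0.999, and ran from 0.483 to 1 over the alternatives. Under vehicle KO minus WT was -0.07 (-0.41 to 0.27, adjusted p = 0.954). The test of the difference between the responses gave -0.26 (-0.70 to 0.18, adjusted p = 1), so the responses of the genotypes were not shown to differ.

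Ppargc1a encodes PGC-1α, the relative of PGC-1β that is induced by cold, fasting and exercise in other tissues. Its brighter probe set, 10529979, read 6.74, 6.70 and 7.32 in KO rosiglitazone, 6.84 and 7.44 in KO vehicle, 6.87, 7.11 and 7.37 in WT rosiglitazone and 7.03 and 7.04 in WT vehicle. Both arrays of mouse 44 (7.32 and 7.44) lay above both arrays of mouse 46 (6.74 and 6.84). KO minus WT was 0.11 in vehicle (95% interval -0.47 to 0.68, adjusted p = 0.955) and -0.19 in rosiglitazone (-0.66 to 0.28, adjusted p = 0.999). Within mice rosiglitazone minus vehicle was -0.11 in each KO mouse and 0.08 and 0.33 in the WT mice 42 and 47. The difference between the responses was -0.30 (95% interval -1.04 to 0.44, adjusted p = 1), and on the second probe set, 10529977, it was -0.52 (adjusted p = 1). The second probe set read 5.74, 5.32 and 6.07 in KO rosiglitazone, 6.10 and 6.28 in KO vehicle, 5.30, 5.55 and 6.33 in WT rosiglitazone and 5.49 and 5.89 in WT vehicle. There the KO rosiglitazone arrays were all below the KO vehicle arrays, which on the brighter probe set they were not, and the WT groups overlapped on both. The KO groups had no overlap, in either direction, in 13.7% of all probe sets. On the second probe set rosiglitazone minus vehicle was -0.48 in KO, against -0.22 on the brighter one, and 0.04 in WT, against 0.08. KO minus WT on it was 0.50 in vehicle (SE 0.33, limma adjusted p = 0.862), where both KO arrays lay above both WT arrays, and -0.02 in rosiglitazone (SE 0.27, adjusted p = 0.999). In vehicle 39.1% of all probe sets had no overlap of the genotypes. The 2 probe sets of Ppargc1a thus gave genotype differences of unlike size, and whether they differ from each other was not tested.

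Directions within mice were counted over the set. In KO mice 2 of the 8 genes were higher with rosiglitazone in both mice and 1 was lower in both, against 24.4% and 25.4% of all probe sets. In WT mice 4 of the 8 were higher in both and 2 were lower in both, against 25.3% and 25.8%. Both KO mice went one way and both WT mice the other for 2 genes, Rxra and Ppargc1a, against 11.8% of all probe sets. KO rosiglitazone and KO vehicle arrays overlapped for each of the 8 genes, where 13.7% of all probe sets had no overlap.

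**Figure D4:**
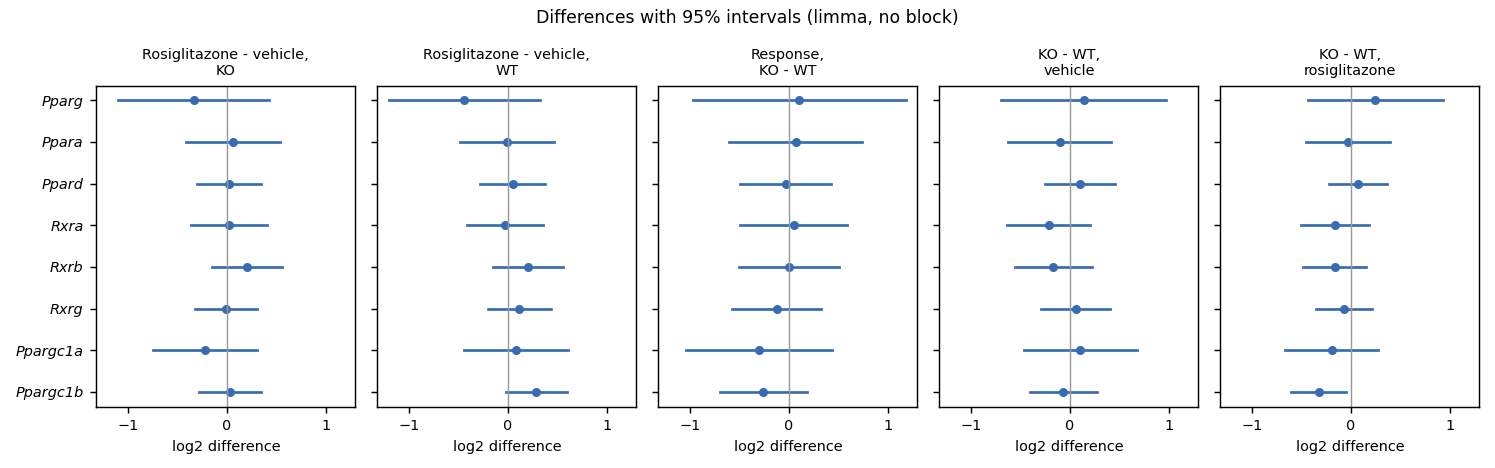
Log2 difference (x axis) with its 95% interval for each of the 8 genes in the 5 comparisons, from the limma fit over 10 arrays. The only interval that lies wholly to one side of 0 is that of Ppargc1b for KO minus WT in rosiglitazone, from -0.60 to -0.05.

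Genes listed as working beside the set gave 0 calls in each of the 5 comparisons (limma, adjusted over all probe sets). The genes named, other than Cpt2 under vehicle and the values within mice, are the 3 with the smallest p of their list and comparison. Of 21 other coactivators, corepressors and subunits of corepressor complexes 19 were measured. Their median difference was 0.02 in KO and 0.02 in WT for rosiglitazone against vehicle, where the median of all probe sets was -0.01 and 0.01. The smallest p values in KO were those of Smarcd3, a chromatin remodelling subunit (0.46, SE 0.26), Pprc1, a relative of the PGC-1 coactivators (0.31, SE 0.20), and Tbl1xr1, a subunit of the NCoR corepressor complex (0.27, SE 0.17). In WT they were those of Sirt1, a deacetylase (-0.23, SE 0.16), Gps2, a subunit of the NCoR corepressor complex (0.17, SE 0.15), and Crebbp, an acetyltransferase (0.16, SE 0.16). All 6 had an adjusted p of 1.

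Of 13 other nuclear receptors that can pair with RXR, 10 were measured. For rosiglitazone against vehicle in KO the smallest p were those of Thrb, a thyroid hormone receptor (0.42, SE 0.26), Nr1h3, which encodes the oxysterol receptor LXRα (0.31, SE 0.27), and Nr4a2, an orphan receptor (0.17, SE 0.17). In WT they were those of Nr4a2 (-0.39, SE 0.17), Nr1i2, the xenobiotic receptor PXR (0.22, SE 0.18), and Nr1h4, the bile acid receptor FXR (-0.40, SE 0.32), and all 6 values had an adjusted p of 1. Within mice Nr4a2 differed by -0.03 and 0.22 in KO (mice 44 and 46) and by -0.29 and -0.52 in WT (mice 42 and 47). For KO against WT under vehicle they were those of Nr4a2 (-0.41, SE 0.19, adjusted p = 0.855), Nr1h3 (-0.65, SE 0.30, adjusted p = 0.855) and Rarb, a retinoic acid receptor (0.66, SE 0.43, adjusted p = 0.862). Among 12 other receptors of the intestinal epithelium, 10 of them measured, Hnf4g (0.58, SE 0.20, adjusted p = 0.957), the clock receptor gene Nr1d2 (-0.37, SE 0.13, adjusted p = 0.986) and Esrra, the estrogen-related receptor alpha (-0.22, SE 0.13, adjusted p = 0.999), had the smallest p for KO against WT in rosiglitazone. There 2 of the 10 had a limma unadjusted p under 0.05, where 4.81% of all probe sets did. In each of the other comparisons 0 of the 10 did.

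Of 46 textbook PPAR target genes 39 were measured. For rosiglitazone against vehicle, 24 of them had a positive difference in KO (median 0.03, against -0.01 for all probe sets, of which 46.4% were positive) and 29 in WT (median 0.12, against 0.01 and 54.3%). The smallest p in KO were those of Ucp3, a mitochondrial carrier (-0.26, SE 0.15), Fabp2, the intestinal fatty acid binding protein (0.33, SE 0.19), and Cpt1a, the outer carnitine palmitoyltransferase of mitochondria (0.29, SE 0.19). In WT they were those of Acaa1b, a peroxisomal thiolase (1.22, SE 0.37), Fabp2 (0.48, SE 0.19) and Pdk4, a kinase that inhibits pyruvate dehydrogenase (0.97, SE 0.43). KO minus WT of these responses was negative for 30 of 39. The median was -0.09, against -0.03 for all probe sets, of which 44.6% were positive. The smallest p there were those of Acaa1b (-1.21, SE 0.53), Pdk4 (-1.19, SE 0.61) and Gpd1, the cytosolic glycerol-3-phosphate dehydrogenase (1.20, SE 0.72). All of these had an adjusted p of 1. Within mice, Acaa1b differed by 1.23 and 1.89 in WT (mice 42 and 47) and by -0.20 and 0.61 in KO (mice 44 and 46). In the same order Pdk4 differed by 1.36 and 1.71 in WT and by -0.16 and -0.24 in KO. Fabp2 differed by 0.09 and 0.46 in WT and by 0.39 and 0.25 in KO. These genes were picked for their WT difference in the same arrays.

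For KO against WT under vehicle 21 of the 39 target genes had a positive difference and 18 a negative one. The median was 0.06, against 0.03 for all probe sets, of which 55.6% were positive. There 2 of 39 had an unadjusted p under 0.05, where 5.69% of all probe sets did. The smallest were those of Gpd1 (-1.59, SE 0.56, adjusted p = 0.846), Retsat, a retinol saturase (-0.66, SE 0.27, adjusted p = 0.855), and Plin2, a coat protein of lipid droplets (-0.54, SE 0.25, adjusted p = 0.855). Cpt2, the inner carnitine palmitoyltransferase, was next (-0.36, SE 0.18, adjusted p = 0.855). For KO against WT in rosiglitazone, which shares its arrays with the responses above, 27 of 39 had a negative difference. The median was -0.11, against 0.00 for all probe sets, of which 50.5% were positive. In this comparison 10 of 39 had an unadjusted p under 0.05, where 4.81% of all probe sets did. The smallest were those of Plin2 (-0.90, SE 0.21, adjusted p = 0.526), Cidec, a lipid droplet protein (-1.34, SE 0.42, adjusted p = 0.915), and Cpt2 (-0.46, SE 0.14, adjusted p = 0.915). The list was chosen with earlier results of these data known and is no independent evidence of its direction.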

How the data were processed

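The deposited values are log2 expression of 35556 probe sets on 10 arrays, made with RMA per the submitters' processing notes. RMA corrects background, applies quantile normalization and summarises each probe set. Its version and chip file are not given in the sources used here. RNA (100 ng per array, RNA integrity above 8.0) was labelled with biotin, per the labels' protocols. Precision is set by how few arrays there are.

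The platform annotation listed 23099 probe sets, of which 21218 had a single symbol and 1881 several, and 12457 further ones were not used. Symbols were updated by Entrez identifier through RefSeq (GRCm38.p6), where 21185 matched. For a gene with several single-symbol probe sets the one with the highest mean over 10 arrays was used. Levels of different probe sets were compared only as above or below the median, or as a rank, of all tested probe sets, which is a rough guide since probes differ in brightness.

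All 23099 were tested with limma 3.58.1 in R 4.3.3 (lmFit with 4 group means, eBayes, two-sided, Benjamini-Hochberg over all of them, threshold 0.05), with 6 residual and 4.39 prior degrees of freedom. The script was checked on simulated data, which were drawn without a donor effect, so the check does not bear on the pairing by mouse. Named genes are the members, the 3 with the smallest p of each list in the comparisons described for it (Cpt2 under vehicle, the next in rank, was added after its values were seen), and the 3 genes nearest to a member that spanned at least 1 log2 unit, which only Pparg did. Members, lists and tests were chosen with earlier results of these data known. Of 92 list entries 78 matched, and of 82 marker entries 79.

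The mouse pairs the treatments, since the labels give each array its donor. As a check, the gap between mice 44 and 46 under rosiglitazone correlated with their gap under vehicle (r = 0.487 across probe sets), and so did the gap between mice 42 and 47 (r = 0.44). The donor as a random (consensus correlation 0.438, statmod 1.5.0) or fixed replicate block was an alternative, as were centring, repeated quantile normalization, bright or all probe sets, only the groups compared, the 4 mice with both treatments, a trended robust prior and leaving out each array. Leaving out mouse 46 was added after seeing the data. Replicates are separate mice.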

Additional observations from a re-analysis of the deposited data

Results flagged for a closer look

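For Rxra and Ppargc1a the mice with both treatments split by genotype in direction. Rxra differed by 0.19 and 0.09 in KO mice 44 and 46, and by -0.08 and -0.0016 in WT mice 42 and 47 (rosiglitazone minus vehicle, log2). The WT value of mouse 47 was close to 0. Ppargc1a differed by -0.11 in each KO mouse, and by 0.08 and 0.33 in WT mice 42 and 47. The same split was seen in 11.8% of all probe sets. The difference between the responses, KO minus WT over all 10 arrays, was 0.05 for Rxra and -0.30 for Ppargc1a, each at limma adjusted p = 1. The split itself was not tested.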

How the results depend on the processing

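Of the 8 genes measured, 0 passed the threshold in each of the 5 comparisons under each alternative run. Of 771 alternative values for these genes, 688 kept the direction and the side of the threshold and 83 changed sign. The cause of the changes of sign was not tested. Where a left-out array leaves 1 in its group, that array is assumed to vary like the other groups. Ppara and Rxrg have no value among bright probe sets only (11549 tested), because both lie below the median of the tested probe sets. At 2 or 3 arrays a group the intervals are wide, and readings below the median limit what can be seen of Ppara and Rxrg.

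With the donor as a random replicate block, rosiglitazone against vehicle in KO was 0.011 for Rxrg and -0.0068 for Ppargc1b, with 1 probe set called. For Rxrb the responses differed by -0.014 (KO minus WT). KO against WT under vehicle was -0.11 for Pparg, with 1 probe set called. With the donor as a fixed replicate block, and likewise on the 4 mice with both treatments, rosiglitazone against vehicle in KO was 0.073 for Pparg, 0.034 for Rxrg and -0.056 for Ppargc1b. For Rxrb the responses differed by -0.035. The block changed no other direction or call of these genes, and a fixed block gives no value for KO against WT, since each mouse has 1 genotype. On the 4 mice alone KO against WT under rosiglitazone was 0.13 for Ppara and 0.058 for Rxrg.

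With arrays centred on their median, rosiglitazone against vehicle in WT was 0.033 for Ppara and 0.018 for Rxra, and the difference between the responses was -0.038 for Rxrb. KO against WT was 0.026 for Ppara and 0.061 for Ppargc1b under vehicle, and 0.054 for Ppara and 0.021 for Rxrg under rosiglitazone. With quantile normalization repeated, rosiglitazone against vehicle was 0.043 for Rxrg in KO and 0.016 for Ppara in WT, and the difference between the responses was -0.038 for Rxrb. KO against WT was -0.084 for Rxrg and 0.030 for Ppargc1b under vehicle, and 0.024 for Ppara under rosiglitazone. Without both arrays of mouse 46, an alternative chosen after seeing the data, rosiglitazone against vehicle in KO was -0.095 for Ppara and -0.13 for Ppard. Between the responses the difference was -0.14 for Pparg and -0.085 for Ppara. KO against WT under rosiglitazone was -0.046 for Pparg and -0.0075 for Ppard.

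Over all probe sets, 0 were called for KO against WT under vehicle in the fit as reported. There were 2 with centring, 1 with repeated quantile normalization, 1 among bright probe sets, 4 with only the groups compared, 6 on the 4 mice and 2 with a trended robust prior. Leaving out single arrays gave 6 without WT rosiglitazone replicate 1 and 0 otherwise. Under rosiglitazone 5 were called. There were 16 on the 4 mice, and 1 with repeated quantile normalization, with all deposited probe sets, with only the groups compared or without mouse 46. Leaving out any single array moved this count: 23 without WT rosiglitazone replicate 1, 3 without KO rosiglitazone replicate 2 or WT rosiglitazone replicate 3, and 1 without each of the other 7.

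Leaving out single arrays turned the sign of the following values. Rosiglitazone against vehicle in KO ran from -0.63 to 0.073 for Pparg, -0.18 to 0.18 for Ppara and -0.060 to 0.092 for Ppard. It ran from -0.17 to 0.22 for Rxra, -0.095 to 0.082 for Rxrg, -0.52 to 0.077 for Ppargc1a and -0.056 to 0.10 for Ppargc1b. In WT it ran from -0.18 to 0.16 for Ppara, -0.065 to 0.16 for Ppard, -0.11 to 0.061 for Rxra and -0.046 to 0.20 for Ppargc1a. The difference between the responses ran from -0.19 to 0.51 for Pparg, -0.17 to 0.24 for Ppara and -0.14 to 0.083 for Ppard. It ran from -0.15 to 0.25 for Rxra and -0.13 to 0.095 for Rxrb. KO against WT under vehicle ran from -0.27 to 0.071 for Ppara, -0.012 to 0.21 for Ppard, -0.053 to 0.17 for Rxrg and -0.19 to 0.40 for Ppargc1a. Under rosiglitazone it ran from -0.046 to 0.66 for Pparg, -0.27 to 0.090 for Ppara, -0.0075 to 0.15 for Ppard and -0.13 to 0.017 for Rxrg.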
